A study of Homo sapiens with 24 samples.

Results

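Genes that mark intestinal identity and differentiation were followed across HCT116 colorectal cancer cells in which the TNRC6 genes had been knocked out or silenced. The 10 genes, of 57721 annotated genes, were taken by name: the homeobox genes CDX1 and CDX2, the Krüppel-like factor genes KLF4 and KLF5, KRT20 and VIL1 of the mature absorptive cell, the adhesion genes CEACAM1, CEACAM5 and CEACAM6, and TFF3 of the goblet cell. In the data, CEACAM1 was several-fold higher in every group that lacked TNRC6A. It was also 1.96-fold higher in wild-type cells given siTNRC6C than siGL2, a call lost when some single libraries were left out. KLF4 was lower in TNRC6AB-/- than in wild-type cells, a call lost without 1 wild-type library. It was also lower in TNRC6AB-/- than in wild-type cells given siGL2. KRT20 was lower in both transfected double knockout groups than in wild-type siGL2 cells, but was not called between the untransfected lines. Wild-type siGL2 cells were themselves 2.18-fold higher in KRT20 than untransfected wild-type cells, and wild-type siTNRC6C cells were lower than wild-type siGL2 cells. Both of these calls were lost when some single libraries were left out. CDX2 was lower in 1 comparison, KLF5, CEACAM5 and VIL1 were not called, and CDX1, CEACAM6 and TFF3 had too few reads to be tested.

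The intestinal lining renews itself from stem cells at the base of crypts, whose descendants become absorptive enterocytes or secretory cells such as goblet cells as they move up. CDX1 and CDX2 are the transcription factors that specify intestinal identity. KLF5 is found in dividing crypt cells and KLF4 in cells that have stopped dividing near the surface, where KRT20, VIL1 and several CEACAM genes are also strongly used. TNRC6 proteins bind Argonaute, the protein that carries microRNAs, and recruit the machinery that silences the matched messenger RNA.

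Each of the 8 groups was sequenced as 3 libraries of total RNA. Without transfection these were TNRC6AB-/-, TNRC6A-/- and TNRC6B-/- knockout cells and wild-type HCT116 cells. With transfection they were TNRC6AB-/- cells given the siRNA pool siTNRC6C, TNRC6AB-/- cells given the control duplex siGL2, wild-type cells given siTNRC6C and wild-type cells given siGL2. All are HCT116, a human colon cancer line. The knockout lines were purchased, 1 line for each genotype, and the wild-type cells came from another supplier. Differences between knockout and wild-type cells therefore cannot be told apart from differences between lines or suppliers. TNRC6A was lost through a frameshift mutation and TNRC6B through a large deletion. Double knockout cells were seeded more densely than wild-type cells for transfection, because they grow slowly, so seeding density and genotype cannot be told apart in the transfected groups. The sources do not say that the 3 libraries came from separate cultures, and p-values therefore measure only the spread between these libraries.

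Depth ran from 28144290 to 42689320 estimated reads per library, with a median of 34465674. TNRC6C averaged 19.7 CPM (reads scaled to library size) in TNRC6AB-/- siTNRC6C cells against 120.0 CPM in TNRC6AB-/- siGL2 cells, and 21.0 CPM in wild-type siTNRC6C against 53.7 CPM in wild-type siGL2 cells. TNRC6A averaged 68.6 CPM in TNRC6A-/- and 51.0 CPM in TNRC6AB-/- cells against 111 CPM in wild type, and TNRC6B 120.0 CPM in TNRC6B-/- and 93.1 CPM in TNRC6AB-/- cells against 192 CPM in wild type. The epithelial genes EPCAM and KRT8 were present in all libraries, at 36.2 to 132 and 258 to 656 TPM (the authors' length-scaled level). KRT18 ran from 173 to 500, KRT19 from 224 to 356 and CDH1 from 2.61 to 37 TPM. EPCAM and CDH1 were lower in TNRC6AB-/- than in wild-type cells, as given at the end. Of the library profiles, those of TNRC6B-/- replicate 1 and wild-type replicate 2 lay farthest from their group mean. A panel of 14 markers of fibroblasts, endothelium and blood summed to 61.1 to 97.4 CPM in TNRC6AB-/- cells and 27.4 to 35.6 CPM in wild type, and to 59.1 to 63.6 CPM in TNRC6AB-/- siTNRC6C and 22.1 to 27.2 CPM in wild-type siGL2 cells. Without the collagen gene COL3A1 the ranges were 37.0 to 46.6 and 27.4 to 35.6 CPM, and 47.5 to 52.8 and 21.9 to 26.8 CPM. Of the 9 markers tested 2 rose and 1 fell in the first of these comparisons and 4 rose and 1 fell in the other. COL1A1 alone averaged 33.7 CPM in TNRC6AB-/- and 24 CPM in wild-type cells. It averaged 43 CPM in TNRC6AB-/- siTNRC6C and 18.2 CPM in wild-type siGL2 cells. COL3A1 averaged 41.4 CPM in TNRC6AB-/- and 0.0522 CPM in wild-type cells, and 11.4 and 0.336 CPM in TNRC6AB-/- siTNRC6C and wild-type siGL2 cells. The leukocyte gene PTPRC averaged 0.598 to 1.29 CPM and the endothelial gene PECAM1 1.02 to 1.74 CPM over all groups. The T cell gene CD3E was at 0 in TNRC6AB-/-, TNRC6AB-/- siTNRC6C, TNRC6A-/-, wild-type siTNRC6C and wild-type siGL2 cells. Its mean was at most 0.0186 CPM in any group. The part of these genes in the results below was not tested, and in bulk RNA fewer cells with a transcript and less transcript per cell cannot be told apart.

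Promoters are shown because the genes behind them behaved differently. In transfected double knockout cells against wild-type siGL2 cells KRT20 fell, CEACAM1 rose, and its paralog CEACAM5 was not called. Sequences run from 250 bases before to 50 after the RefSeq start (GRCh38.p14). KRT20 lies at chr17:40885193-40885492 on the minus strand, CEACAM1 at chr19:42528432-42528731 on the minus strand and CEACAM5 at chr19:41708376-41708675 on the plus strand. Capitals mark the CDX motif TTTATG, read as its reverse complement, in KRT20 and the E-box CACGTG in CEACAM5.
KRT20: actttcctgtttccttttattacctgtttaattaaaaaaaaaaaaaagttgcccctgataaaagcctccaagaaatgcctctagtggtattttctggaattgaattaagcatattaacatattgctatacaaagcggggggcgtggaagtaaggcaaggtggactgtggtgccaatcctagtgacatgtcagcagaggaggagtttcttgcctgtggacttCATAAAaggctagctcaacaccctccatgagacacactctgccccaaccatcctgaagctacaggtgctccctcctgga
CEACAM1: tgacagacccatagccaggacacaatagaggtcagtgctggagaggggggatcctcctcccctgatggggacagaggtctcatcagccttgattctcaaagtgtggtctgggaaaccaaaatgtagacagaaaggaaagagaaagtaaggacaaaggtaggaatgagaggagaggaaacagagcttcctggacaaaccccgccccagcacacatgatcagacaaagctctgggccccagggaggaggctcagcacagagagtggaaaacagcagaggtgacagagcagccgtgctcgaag
CEACAM5: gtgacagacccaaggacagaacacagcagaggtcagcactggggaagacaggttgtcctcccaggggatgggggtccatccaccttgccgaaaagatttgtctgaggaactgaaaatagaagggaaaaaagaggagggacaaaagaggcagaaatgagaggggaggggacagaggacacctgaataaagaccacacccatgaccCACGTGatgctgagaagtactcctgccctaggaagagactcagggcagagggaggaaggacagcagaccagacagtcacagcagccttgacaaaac
The motifs searched on both strands were TTTATG (CDX), CACGTG (E-box), GGGCGG (GC box) and CACCC, and 7 of the 10 members matched an entry of the RefSeq table, KLF5 with 2 starts. The CDX motif was found in 1 of the 7, in KRT20 at base -29 from the start, and 11.0% of all 27305 promoters held it. The E-box stood at -46 in CEACAM5, -45 in CEACAM6 and -157 in KLF4, and 7.43% of all promoters held it. CACCC, held by 58.9% of all promoters, was in the KRT20, KLF5, CEACAM5 and CEACAM6 windows. No E-box was in the CEACAM1 window, which held 1 GC box at -52, whereas the KLF4 window held 4 (44.6% of all promoters held at least 1). CEACAM1 and CEACAM5 were identical at 65.6% of alignment columns, CEACAM1 and CEACAM6 at 68.2%, and CEACAM5 and CEACAM6 at 74.7%, whereas all other pairs lay between 37.7% and 48.0%. A match describes these letters and is not a binding site.

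Because TNRC6 acts through microRNAs, the 3′ untranslated regions of the members were also searched for the 7 bases that pair with the seed, bases 2 to 8, of 15 microRNAs and of 4 siRNA guide strands. For the siRNAs these bases were counted from the start of the antisense strand as listed. The siTNRC6C guides 2 and 3 are listed at 27 bases. Whether cells shorten them before use was not tested, so the seeds of these guides are uncertain. The microRNAs miR-29a and miR-34a, which matched both CEACAM1 and KLF4, and the siTNRC6C guide with a match in CEACAM1 are shown with the seed in capitals.
hsa-miR-29a-3p: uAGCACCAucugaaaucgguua
hsa-miR-34a-5p: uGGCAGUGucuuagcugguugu
siTNRC6C guide 1: aAGUGGACguuugugguuc
Their matches in the members that were called, and in KLF5, follow with 8 bases of GENCODE 29 transcript on each side where the region reaches that far, and the match in capitals.
CEACAM1, miR-29a, first match: aagcacctTGGTGCTtagctaga
CEACAM1, miR-29a, other match: agctgcacTGGTGCTaatgcccc
KLF4, miR-29a: ctaaatgaTGGTGCTtggtgagt
CEACAM1, miR-34a: tgcctggtCACTGCCcctctctc
KLF4, miR-34a: atgacccaCACTGCCagaagaga
KLF5, miR-34a: gCACTGCCcgtgtgac
CEACAM1, siTNRC6C guide 1: acacctttGTCCACTgtcagggt
CEACAM1, with a 3′ region of 1928 bases, held the miR-29a match 2 times and 1 match each to miR-19b, miR-30a and miR-34a. Of 2402 regions of like length, 16.7% held a miR-29a match and 21.1% a miR-34a match. The match to siTNRC6C guide 1 in CEACAM1 was of a kind found in 7.95% of those regions. KLF4 held 1 match each to miR-92a, miR-29a, miR-34a and miR-200b in 899 bases, with miR-29a matches in 9.52% and miR-34a matches in 13.2% of 1923 like regions. KLF5 held 1 each to miR-21, miR-34a, miR-141, miR-143 and miR-145 in 1656 bases, and CDX2 and CDX1 held 1 each to miR-24. CEACAM6 held the miR-29a match 2 times, as CEACAM1 did, but in a transcript with a median of 0% of CEACAM6 TPM. The longest annotated 3′ region of each member was searched, whatever the level of its transcript. KRT20, whose 3′ region is 420 bases long, and CEACAM5, with 651 bases, held none of the 19 matches as counted here. Whether any of these letters is bound in these cells was not tested.

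The members differed widely in level. In length-scaled terms the median over the 24 libraries was 38.4 TPM for KLF5, 10.5 TPM for KLF4 and 3.12 TPM for CDX2. It was 1.57 TPM for CEACAM1, 0.332 TPM for CEACAM5, 0.224 TPM for CEACAM6 and 0.201 TPM for KRT20. VIL1, the villin gene that bundles actin in the brush border, stood at 0.0601 TPM, and CDX1 and TFF3 at 0. The ladder from KLF5 down to TFF3 thus placed most of the late differentiation markers below 1 TPM. A short annotated KLF5 transcript of 130 bases held 20.9% of KLF5 TPM in wild-type cells on a mean of 10.8 estimated reads, so a small number of reads carries much of that level, and CPM was used for all comparisons between groups. Median TPM over all tested genes also shifted between groups, by 0.63 on the log2 scale in TNRC6AB-/- siTNRC6C and 0.39 in TNRC6AB-/- siGL2 against wild-type siGL2 cells, by 0.21 in TNRC6AB-/- siTNRC6C against TNRC6AB-/- siGL2 cells, by -0.11 in TNRC6AB-/- and -0.29 in TNRC6B-/- against wild-type cells, and by -0.42 in wild-type siGL2 against untransfected wild-type cells. TPM differences are therefore given relative to that shift.

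**Figure D1:**
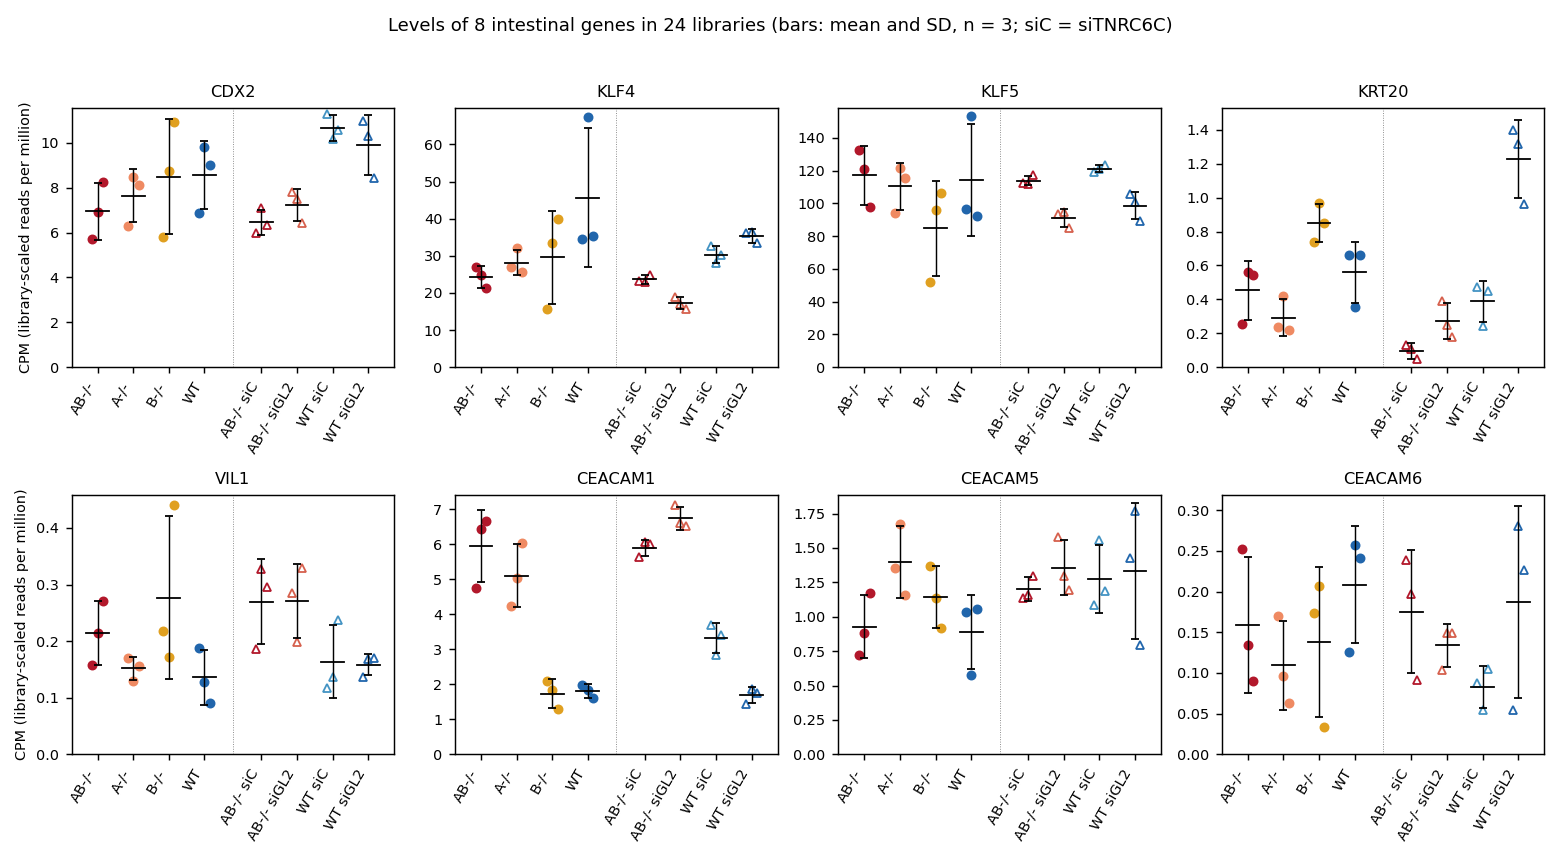
CPM of the 8 members with reads in nearly every library, in the 24 libraries. Circles are untransfected and triangles transfected groups, ordered from TNRC6AB-/- to wild type and from TNRC6AB-/- siTNRC6C to wild-type siGL2, with the mean and SD of 3 libraries; CEACAM1 sits between 4.24 and 7.13 CPM in the 4 groups without TNRC6A and between 1.29 and 3.70 CPM in the others.

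Of the 10 members, 7 had enough reads to be tested. In TNRC6AB-/- against wild-type cells 1 member rose and 1 fell at an adjusted p below 0.05 (edgeR quasi-likelihood test, 24 libraries), where 29.4% of all 24153 tested genes were called, 17.2% as higher and 12.3% as lower. In TNRC6A-/- cells 1 rose and none fell (14.0% of all genes called, 8.52% higher and 5.47% lower). In TNRC6B-/- cells edgeR, DESeq2 and limma called none (3.14% of all genes called by edgeR, 2.2% higher and 0.94% lower; DESeq2 gave KRT20 no adjusted p), with 3 members at an unadjusted p below 0.05. Only edgeR without a filter on low counts called a member there, KLF4. In TNRC6AB-/- siTNRC6C against wild-type siGL2 cells 1 rose and 2 fell (42.2% of all genes called, 17.0% higher and 25.2% lower). The same numbers were called when the TNRC6AB-/- siGL2 libraries were set against wild-type siGL2 (21.7%, 9.17% higher and 12.5% lower). In wild-type siTNRC6C against wild-type siGL2 cells 1 rose and 1 fell (0.932%, 0.397% higher and 0.534% lower, which is 225 genes, and 46 to 86 genes when 1 library was left out). In TNRC6AB-/- siTNRC6C against TNRC6AB-/- siGL2 cells edgeR and DESeq2 called none, DESeq2 giving KRT20 no adjusted p, and limma called KRT20, KLF4 and KLF5 (6.55% of all genes by edgeR, 2.19% higher and 4.36% lower), with 1 member at an unadjusted p below 0.05. These comparisons share control libraries and are not independent of each other. The median log2 fold change of the 7 members was 0.04 in TNRC6AB-/- cells and -0.15 in TNRC6AB-/- siTNRC6C cells, beside 0.01 and 0.01 over all tested genes.

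**Figure D2:**
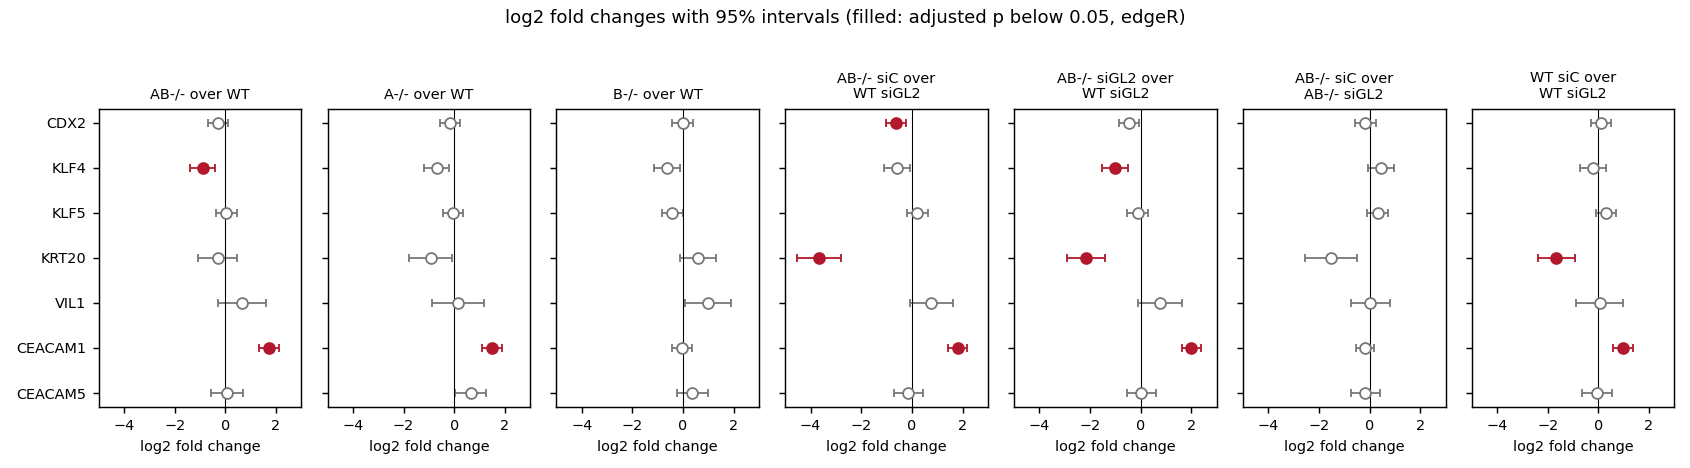
log2 fold changes of the 7 tested members in 7 comparisons with 95% intervals from the standard error and 16 residual degrees of freedom; filled red points passed an adjusted p of 0.05, and AB-/-, A-/-, B-/-, WT and siC stand for TNRC6AB-/-, TNRC6A-/-, TNRC6B-/-, wild type and siTNRC6C. CEACAM1 is to the right of 0 in 5 panels as a filled point, and KRT20 reaches -3.65 in TNRC6AB-/- siTNRC6C against wild-type siGL2 cells.

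CDX2 (ENSG00000165556.9, GRCh38 chr13:27962137-27971139, minus strand) encodes the homeobox factor without which the intestinal lining loses its identity. It rested on 181 to 401 reads per library. In untransfected cells it measured 5.71, 6.92 and 8.24 CPM in TNRC6AB-/- cells, 6.31, 8.48 and 8.14 CPM in TNRC6A-/- cells, 5.82, 8.73 and 10.9 CPM in TNRC6B-/- cells and 6.88, 9.80 and 9.0 CPM in wild-type cells. All 4 groups overlapped. None of the 3 contrasts with wild type was called, the difference in TNRC6AB-/- cells being -0.30 on the log2 scale (95% interval -0.70 to 0.10).

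Among transfected cells CDX2 measured 5.99, 7.08 and 6.33 CPM in TNRC6AB-/- siTNRC6C cells against 11.0, 10.3 and 8.42 CPM in wild-type siGL2 cells. These groups did not overlap, and CDX2 fell by 0.61 on the log2 scale (SE 0.19, adjusted p = 0.0111, edgeR), a call that was lost without wild-type siGL2 replicate 1 (adjusted p = 0.0554). TNRC6AB-/- siGL2 cells gave 7.80, 7.48 and 6.42 CPM and wild-type siTNRC6C cells 11.3, 10.2 and 10.6 CPM. The TNRC6AB-/- siGL2 libraries also lay below all wild-type siGL2 libraries without passing the test (log2 fold change -0.45, adjusted p = 0.0926), though the 6 compared libraries alone (adjusted p = 0.018, edgeR) and limma (adjusted p = 0.0271) called CDX2. Adding siTNRC6C to wild-type cells gave 0.11 (interval -0.28 to 0.50). In the order of means, from wild-type siTNRC6C (10.7 CPM) to TNRC6AB-/- siTNRC6C (6.47 CPM), each group overlapped the next. Of 2 annotated transcripts, the protein-coding one held 45.3% of CDX2 TPM in TNRC6AB-/- and 43.5% in wild-type cells, but 67.2% in TNRC6AB-/- siTNRC6C, against 44.4% in wild-type siGL2 cells, and the rest went to a processed transcript of 581 bases that averaged 16.2 to 41.5 reads. CDX1 (ENSG00000113722.16, chr5:150166795-150184558, plus strand), the other homeobox gene of the pair, had 1 read in 5 libraries and none in 19. With 0 reads a library allows up to 0.0703 to 0.107 CPM (3 reads), so no comparison could be made at this depth. These limits cover counting error only.

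KLF4 (ENSG00000136826.14, chr9:107484852-107490482, minus strand), a zinc finger factor of cells that have left the cycle, had 528 to 2095 reads per library. It measured 27.1, 24.9 and 21.2 CPM in TNRC6AB-/- cells, 26.9, 32.1 and 25.5 CPM in TNRC6A-/- cells, 15.6, 33.4 and 39.8 CPM in TNRC6B-/- cells and 34.5, 67.3 and 35.2 CPM in wild-type cells. The TNRC6AB-/- and TNRC6A-/- libraries all lay below the lowest wild-type library, whereas TNRC6B-/- overlapped wild type. KLF4 fell in TNRC6AB-/- cells, by 0.90 on the log2 scale (SE 0.24, adjusted p = 0.00587, edgeR). Wild-type replicate 2, at nearly the sum of the other wild-type libraries, carried part of this: without it the value was -0.51 (adjusted p = 0.0895), and without it and TNRC6B-/- replicate 1 together -0.51 (adjusted p = 0.00108). The differences of -0.70 in TNRC6A-/- cells (adjusted p = 0.0541) and -0.63 in TNRC6B-/- cells (adjusted p = 0.179) were not called, and DESeq2 called the first of them (adjusted p = 0.031). edgeR without a filter called both differences (-0.73 with adjusted p = 0.000976, and -0.67 with adjusted p = 0.0088). Without wild-type replicate 2 and TNRC6B-/- replicate 1 they were -0.31 and 0.07. The effect of losing both genes less the sum of the single losses was 0.43 (interval -0.29 to 1.14, adjusted p = 0.512, edgeR), and -0.28 without those 2 libraries.

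In transfected cells KLF4 was tighter among replicates. TNRC6AB-/- siGL2 cells had 19.0, 17.1 and 15.8 CPM and wild-type siGL2 cells 36.2, 36.5 and 33.3 CPM, without overlap, and KLF4 fell by 1.03 on the log2 scale (SE 0.24, adjusted p = 0.0032, edgeR). TNRC6AB-/- siTNRC6C cells had 23.1, 22.9 and 24.9 CPM, which lay above all TNRC6AB-/- siGL2 libraries and below all wild-type siGL2 libraries. Neither difference was called in the filtered edgeR fit of 24 libraries: against wild-type siGL2 it was -0.58 (adjusted p = 0.0549) and against TNRC6AB-/- siGL2 it was 0.45 (adjusted p = 0.254). Over the same libraries limma called both (adjusted p = 0.0017 and 0.0104), and DESeq2 (0.0479) and edgeR without a filter (0.00707) called the first. In fits of the 6 compared libraries alone, which use the smaller spread of transfected cells, both were called (-0.48 with adjusted p = 2.56e-05, and 0.49 with adjusted p = 3.42e-05, edgeR). Wild-type siTNRC6C cells had 32.5, 28.1 and 30.2 CPM, below each wild-type siGL2 library but not called (-0.22, adjusted p = 0.8; 6 libraries alone, adjusted p = 0.0331). KLF4 TPM itself averaged 11.0 in TNRC6AB-/- siTNRC6C, against 10.8 in wild-type siGL2 cells, and overlapped, a difference of 0.03 that becomes -0.60 less the shift of all genes. Relative to that shift, the KLF4 TPM difference was -0.79 in TNRC6AB-/- against wild-type cells and -1.03 between the siGL2 groups, TNRC6AB-/- less wild type. A transcript of 1956 bases held 54.5% of KLF4 TPM in TNRC6AB-/- and 52.7% in wild-type cells.

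KLF5 (ENSG00000102554.13, chr13:73054976-73077542, plus strand), a factor of proliferating crypt cells, was the most abundant member with 2391 to 5152 reads per library. It measured 133, 121 and 97.5 CPM in TNRC6AB-/- cells, 94.2, 121 and 115 CPM in TNRC6A-/- cells, 51.9, 96 and 106 CPM in TNRC6B-/- cells and 96.6, 153 and 92.1 CPM in wild-type cells. These groups all overlapped wild type in CPM, and the TNRC6B-/- difference of -0.43 was not called (adjusted p = 0.295, edgeR). In TPM the TNRC6B-/- libraries did not overlap wild type (means of 23.2 and 47.9, -0.72 less the shift of all genes), whereas TNRC6AB-/- and TNRC6A-/- did. The CPM difference in TNRC6AB-/- cells was 0.04 (interval -0.37 to 0.45). Without wild-type replicate 2 and TNRC6B-/- replicate 1, the libraries farthest from their groups, it was called (0.31, adjusted p = 0.039, edgeR). TNRC6AB-/- siTNRC6C cells gave 113, 112 and 117 CPM, TNRC6AB-/- siGL2 cells 93.7, 94.4 and 85.0 CPM, wild-type siTNRC6C cells 119, 121 and 124 CPM and wild-type siGL2 cells 105, 101 and 89.4 CPM. Every siTNRC6C library lay above the siGL2 libraries of its own background, by 0.32 on the log2 scale in TNRC6AB-/- cells (adjusted p = 0.312) and 0.30 in wild-type cells (adjusted p = 0.587), neither of them called in the fit of 24 libraries. With the 6 compared libraries alone the adjusted p-values were 2.45e-05 and 0.0122. The siTNRC6C difference in TNRC6AB-/- cells less that in wild-type cells was 0.03 (interval -0.56 to 0.61). TNRC6AB-/- siTNRC6C against wild-type siGL2 cells gave 0.21 in CPM (adjusted p = 0.402, edgeR). In TPM these groups did not overlap (means of 61.8 and 30.6, 0.405 less the shift). The 24-library fit takes 1 spread for each gene over all groups, and KLF5 spread much more among untransfected libraries (SD 14.3 to 34.2 CPM) than among transfected ones (SD 2.16 to 8.27 CPM).

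KRT20 (ENSG00000171431.3, chr17:40875941-40885227, minus strand) encodes keratin 20, an intermediate filament protein of mature enterocytes and goblet cells that pathologists use to mark colorectal epithelium. Reads were few, from 2 to 51 per library, so read numbers are given. TNRC6AB-/- cells had 8, 21 and 18 reads, TNRC6A-/- cells 7, 13 and 7, TNRC6B-/- cells 34, 28 and 25 and wild-type cells 21, 11 and 22. No untransfected knockout was called against wild type (log2 fold change -0.29 in TNRC6AB-/-, -0.93 with adjusted p = 0.121 in TNRC6A-/- and 0.59 with adjusted p = 0.46 in TNRC6B-/- cells). On counts rebuilt from TPM the TNRC6A-/- difference was called (-1.40, adjusted p = 0.0253). The TNRC6B-/- libraries all lay above wild type in CPM, from 0.738 to 0.966 against 0.354 to 0.665.

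After transfection KRT20 set the groups apart. TNRC6AB-/- siTNRC6C cells had 5, 5 and 2 reads, TNRC6AB-/- siGL2 cells 15, 10 and 6, wild-type siTNRC6C cells 16, 9 and 17 and wild-type siGL2 cells 51, 47 and 34. Scaled to library size, no library of the other 3 groups reached the lowest wild-type siGL2 library. Against wild-type siGL2, KRT20 fell by 3.65 on the log2 scale in TNRC6AB-/- siTNRC6C cells (SE 0.41, adjusted p = 2.86e-07, edgeR) and by 2.15 when they had siGL2 instead (SE 0.36, adjusted p = 0.000106). The summed reads, 12 against 132, gave a depth-scaled ratio of 0.0765 (exact binomial 95% interval 0.0386 to 0.138, counting error only) for TNRC6AB-/- siTNRC6C over wild-type siGL2. In wild-type siTNRC6C cells it fell by 1.66 (SE 0.34, adjusted p = 0.019), and this call was lost when any of the 3 siTNRC6C libraries or siGL2 replicates 1 or 2 was left out (adjusted p from 0.0629 to 0.131). TNRC6AB-/- siTNRC6C lay below TNRC6AB-/- siGL2 in every library, with a difference of -1.51 that missed the threshold (adjusted p = 0.0617; 6 libraries alone, adjusted p = 0.0323).

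KRT20 was higher in wild-type cells transfected with the control duplex than in untransfected ones, where duplex, lipid and handling cannot be told apart. Wild-type siGL2 cells averaged 1.23 ± 0.23 CPM and untransfected wild-type cells 0.559 ± 0.178 CPM (SD, n = 3 each), a log2 fold change of 1.13 (SE 0.33, adjusted p = 0.0167, edgeR; 24.8% of all genes called, 16.4% higher and 8.41% lower). In this comparison KRT20 was the 1 member called, and leaving out wild-type replicate 2 (adjusted p = 0.103), siGL2 replicate 1 (0.0769) or siGL2 replicate 2 (0.0618) ended the call. It was also lost with limma (0.0882), and in edgeR with the compared libraries alone (0.0893) and on counts rebuilt from TPM (0.196). Of 14 alternative fits 7 kept the call. In TNRC6AB-/- cells siGL2 and untransfected libraries overlapped (0.272 ± 0.107 and 0.453 ± 0.174 CPM), and no member was called (20.1% of all genes called, 9.73% higher and 10.4% lower; limma and DESeq2 also called none, and no member had an unadjusted p below 0.05). The siGL2 effect differed between the backgrounds by -1.85 (SE 0.51, adjusted p = 0.0255), as the 1 member called in that interaction (8.71% of all genes, 2.22% higher and 6.5% lower). Leaving out any 1 of 7 libraries of these 4 groups ended that call (adjusted p from 0.0586 to 0.11), as did limma (0.0978) and counts rebuilt from TPM (0.147).

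VIL1 (ENSG00000127831.10, chr2:218419092-218453295, plus strand) had 3.0 to 15.1 estimated reads per library. It averaged 0.214 ± 0.057 CPM in TNRC6AB-/- and 0.136 ± 0.049 CPM in wild-type cells, and 0.270 ± 0.075 CPM in TNRC6AB-/- siTNRC6C against 0.159 ± 0.018 CPM in wild-type siGL2 cells (SD, n = 3 each). The transfected pair did not overlap, yet the difference of 0.77 had an interval of -0.08 to 1.62 and was not called (adjusted p = 0.126, edgeR). On counts rebuilt from TPM it was called (1.15, adjusted p = 0.0491). VIL1 overlaps USP37 on the genome.

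CEACAM1 (ENSG00000079385.21, chr19:42507304-42561234, minus strand) encodes a cell adhesion receptor of epithelia and immune cells, some forms of which can pass inhibitory signals through a long cytoplasmic tail. It measured 4.76, 6.44 and 6.67 CPM in TNRC6AB-/- cells, 4.24, 5.03 and 6.04 CPM in TNRC6A-/- cells, 2.08, 1.83 and 1.29 CPM in TNRC6B-/- cells and 1.98, 1.83 and 1.60 CPM in wild-type cells. TNRC6AB-/- and TNRC6A-/- libraries all exceeded every wild-type library, and TNRC6B-/- libraries overlapped wild type. CEACAM1 rose 3.30-fold in TNRC6AB-/- cells (1.72 on the log2 scale, SE 0.18, adjusted p = 1.95e-07 by edgeR). It rose 2.83-fold in TNRC6A-/- cells (1.5, SE 0.18, adjusted p = 6.38e-06). In TNRC6B-/- cells the difference was -0.04 (interval -0.45 to 0.37). The effect of the double loss differed from the sum of the single losses by 0.26 (interval -0.29 to 0.81), which was not called, as no member was in that interaction by edgeR, DESeq2 or limma (7.75% of all genes called, 3.47% higher and 4.28% lower, 1 member at an unadjusted p below 0.05).

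The same gene stood high in both transfected double knockout groups. It measured 5.64, 6.05 and 6.02 CPM in TNRC6AB-/- siTNRC6C cells, 7.13, 6.61 and 6.51 CPM in TNRC6AB-/- siGL2 cells, 3.70, 2.84 and 3.42 CPM in wild-type siTNRC6C cells and 1.43, 1.88 and 1.76 CPM in wild-type siGL2 cells. Wild-type siTNRC6C cells thus lay between the double knockout and the wild-type siGL2 cells, overlapping neither. Against wild-type siGL2 CEACAM1 rose 3.49-fold in TNRC6AB-/- siTNRC6C cells (1.80, SE 0.18, adjusted p = 6e-08), 3.99-fold in TNRC6AB-/- siGL2 cells (2.0, SE 0.18, adjusted p = 3.12e-08) and 1.96-fold in wild-type siTNRC6C cells (0.97, SE 0.19, adjusted p = 0.01). This last call was lost without siTNRC6C replicate 1 (adjusted p = 0.0789), siTNRC6C replicate 3 (0.0661) or siGL2 replicate 1 (0.0771) and on counts rebuilt from TPM (0.0626).

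In double knockout cells siTNRC6C was not followed by a further rise. TNRC6AB-/- siTNRC6C was below TNRC6AB-/- siGL2 in every library, by -0.19 (interval -0.55 to 0.16, adjusted p = 0.491). The siTNRC6C difference was lower in the double knockout than in wild-type cells by 1.17 (interaction -1.17, SE 0.25, adjusted p = 0.0145, edgeR), the 1 member called in this interaction where 3.03% of all genes were (0.903% higher and 2.13% lower). The interaction was not called without wild-type siTNRC6C replicate 1 (-1.08, adjusted p = 0.051) or on counts rebuilt from TPM (-1.0, adjusted p = 0.0631). In the order of the 8 means the 4 groups without TNRC6A, from 6.75 to 5.10 CPM, overlapped their neighbours, wild-type siTNRC6C followed alone at 3.32 CPM, and wild type, TNRC6B-/- and wild-type siGL2 overlapped between 1.80 and 1.69 CPM.

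CEACAM1 estimates rest on 38.1 to 277 reads per library, and in all 24 libraries they were off a whole number by more than 0.01, because reads shared with other transcripts are split. They were spread over 14 annotated transcripts. The transcript with most reads in TNRC6AB-/- cells, which codes for 464 codons and carries the 3′ region searched above, averaged 97.5 reads in TNRC6AB-/- and 12.0 in wild-type cells, and 133 reads in TNRC6AB-/- siTNRC6C, 128 in TNRC6AB-/- siGL2, 61.7 in wild-type siTNRC6C and 14.3 in wild-type siGL2 cells. Its share of CEACAM1 TPM was 29.4% in TNRC6AB-/- cells, 24.5% in TNRC6A-/- cells and 9.21% in wild-type cells. Over the 24 libraries its median share was 26.3%, and that of the transcript of 526 codons was 6.33%. Transcript estimates from so few reads are uncertain and were not tested, and neither was which form of the receptor changed. Relative to the median of all genes, the TPM of CEACAM1 differed by 1.21 in TNRC6AB-/- and 1.09 in TNRC6A-/- cells, without overlap with wild type in either, and by 1.70 in TNRC6AB-/- siTNRC6C and 1.86 in TNRC6AB-/- siGL2 cells, both relative to wild-type siGL2. Its TPM also differed by -0.50 relative to the median in wild-type siGL2 against untransfected wild-type cells, without overlap, where the CPM difference was -0.09 (adjusted p = 0.745).

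LIPE-AS1 overlaps CEACAM1 on the opposite strand. The kit kept strand, but the strand setting of the counting is not given in the sources used here, so reads of the 2 genes might be mixed. LIPE-AS1 averaged 3.47 ± 0.11 CPM in TNRC6AB-/- and 5.46 ± 1.57 CPM in wild-type cells, and 1.10 ± 0.25 CPM in TNRC6AB-/- siTNRC6C, 1.64 ± 0.16 CPM in TNRC6AB-/- siGL2, 2.03 ± 0.27 CPM in wild-type siTNRC6C and 3.81 ± 0.28 CPM in wild-type siGL2 cells. It fell by 0.65 in TNRC6AB-/- against wild-type cells (adjusted p = 0.0177, edgeR) and by 1.79 in TNRC6AB-/- siTNRC6C against wild-type siGL2 cells (adjusted p = 1.06e-06). The antisense gene moved the other way from CEACAM1 in these comparisons, and its part in the CEACAM1 values was not tested.

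**Figure D3:**
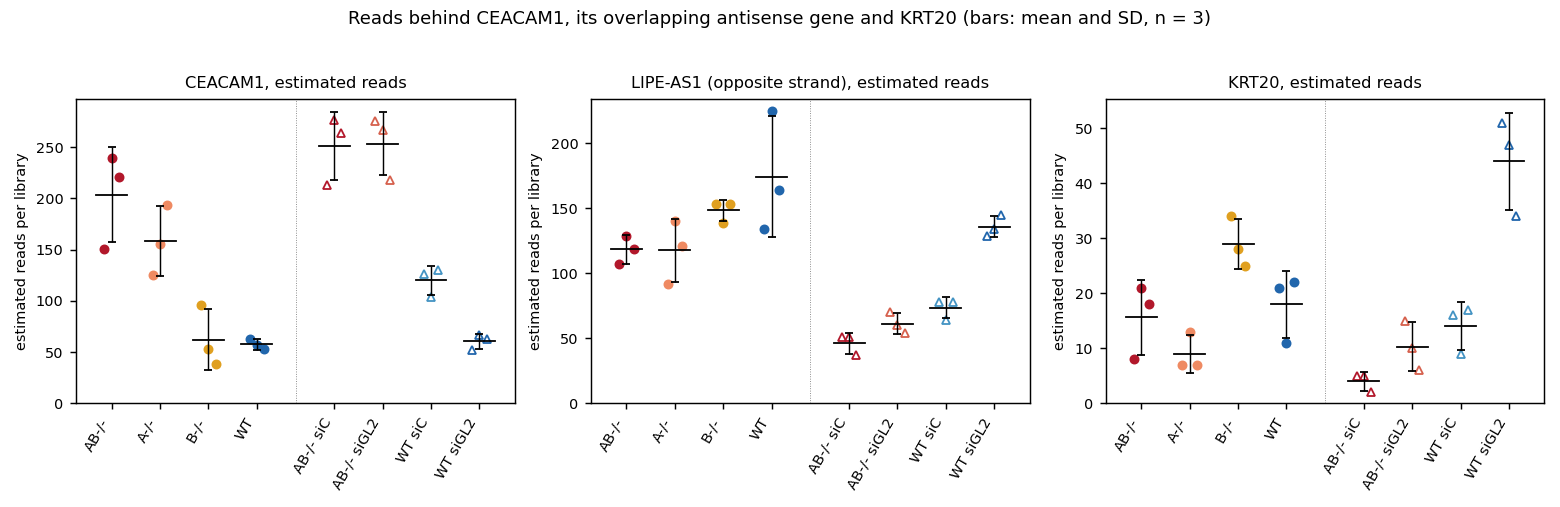
Estimated reads per library of CEACAM1, of LIPE-AS1 on its opposite strand and of KRT20, with mean and SD of 3 libraries in each group. CEACAM1 has 151 to 240 reads in TNRC6AB-/- and 53.0 to 63.2 in wild-type libraries, LIPE-AS1 has 37 to 51 in TNRC6AB-/- siTNRC6C and 129 to 145 in wild-type siGL2 libraries, and KRT20 has 2 to 5 and 34 to 51 in the same groups.

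CEACAM5 (ENSG00000105388.15, chr19:41708585-41729798, plus strand), the carcinoembryonic antigen measured in the blood of patients with colorectal cancer, had 18.0 to 63.0 reads per library. It measured 0.725, 0.885 and 1.18 CPM in TNRC6AB-/- cells, 1.36, 1.68 and 1.16 CPM in TNRC6A-/- cells, 1.37, 1.14 and 0.916 CPM in TNRC6B-/- cells and 1.04, 0.579 and 1.06 CPM in wild-type cells. TNRC6A-/- libraries lay above all wild-type libraries, but the difference of 0.64 was not called (interval 0.04 to 1.25, adjusted p = 0.141, edgeR). In TNRC6AB-/- cells it was 0.06 (interval -0.57 to 0.68). TNRC6AB-/- siTNRC6C cells averaged 1.20 ± 0.09 CPM, TNRC6AB-/- siGL2 cells 1.36 ± 0.20 CPM, wild-type siTNRC6C cells 1.28 ± 0.25 CPM and wild-type siGL2 cells 1.33 ± 0.49 CPM, all overlapping. The interval of the double knockout change in CEACAM5 ends at 0.68, and that of its neighbour CEACAM1 begins at 1.33. The difference between the genes was not tested.

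CEACAM6 (ENSG00000086548.8, chr19:41750977-41772208, plus strand), a lipid-anchored relative on the same chromosome, had 1.01 to 10.2 estimated reads per library and did not pass the filter on low counts. TNRC6AB-/- cells averaged 0.159 ± 0.084 CPM and wild-type cells 0.208 ± 0.072 CPM, and TNRC6AB-/- siTNRC6C cells 0.175 ± 0.076 CPM against 0.188 ± 0.118 CPM in wild-type siGL2 cells (SD, n = 3 each). Each neighbour in the order of its 8 means overlapped the next. TFF3 (ENSG00000160180.15, chr21:42311667-42315651, minus strand), the trefoil peptide that goblet cells secrete with mucus, had no read in any of the 24 libraries. Of 852831165 reads in all, 0 allows up to 0.00352 CPM (3 reads). No difference in TFF3 was detectable.

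For each member with a mean of at least 1 CPM, the genes whose log2 CPM ran most nearly in parallel over the 24 libraries were found among genes of at least 5 CPM. For CEACAM1 they were ELF1 (Pearson r = 0.94) and SLC38A7 (r = 0.927), and for CDX2 COX7A2L (r = 0.947) and CBY1 (r = 0.926). For KLF4 they were FAM110C (r = 0.867) and SPATS2 (r = 0.838). KLF5 had weaker neighbours, COG1 (r = 0.732) and ZHX2 (r = 0.721), as had CEACAM5, with PRR11 (r = 0.763) and RNF141 (r = 0.755). The 24 points share 8 groups and their libraries, and the values are descriptions of likeness.

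Other genes of the same programme were read from lists. Of 18 further intestinal transcription factors 14 were tested. In TNRC6AB-/- against wild-type cells 1 rose and 8 fell, with a median log2 fold change of -0.97, and in TNRC6AB-/- siTNRC6C against wild-type siGL2 cells none rose and 11 fell, with a median of -1.38, whereas in wild-type siTNRC6C against wild-type siGL2 cells 1 rose and none fell. Between the siGL2 groups, TNRC6AB-/- over wild type, none rose and 9 fell. Of all tested genes 12.3%, 25.2%, 0.534% and 12.5% fell in these comparisons, in that order. The medians over all tested genes were 0.01, 0.01 and 0.00. HNF4A, a nuclear receptor of hepatocytes and enterocytes, averaged 1.75 ± 0.45 CPM in TNRC6AB-/- and 9.59 ± 0.92 CPM in wild-type cells (-2.46 on the log2 scale, SE 0.19, adjusted p = 1.31e-09 by edgeR). It averaged 1.53 ± 0.06 CPM in TNRC6AB-/- siTNRC6C and 13.6 ± 1.09 CPM in wild-type siGL2 cells (-3.14, adjusted p = 1.74e-11). ELF3 and EHF, ETS factors of epithelia, fell by 1.41 (adjusted p = 5.06e-06) and 2.05 (adjusted p = 3.23e-06) there and differed by -3.45 (adjusted p = 2.11e-11) and -1.87 (adjusted p = 7.79e-06) in TNRC6AB-/- siTNRC6C cells. In the same comparison CDX2 fell by 0.61, beside the list median of -1.38. HNF4A, ELF3 and EHF were named for their small adjusted p, so the size of CDX2 cannot be judged against theirs.

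Among 33 enterocyte and brush border genes 17 were tested, of which 2 rose and 3 fell in TNRC6AB-/- cells, and none rose and 6 fell in TNRC6AB-/- siTNRC6C against wild-type siGL2 cells, where 29.4% and 42.2% of all genes were called. Between the siGL2 groups none rose and 1 fell (21.7% of all genes called). Counting both directions, the number called was thus not above the share over all genes. Of all tested genes 12.3%, 25.2% and 12.5% fell in these comparisons, in that order. The share of the list that fell was higher than this in the first and second comparisons and lower between the siGL2 groups. The median log2 fold change of the list was -0.14, -0.36 and -0.29. The difference in share was not tested. DPP4, a peptidase of the brush border, averaged 3.95 ± 1.06 CPM in TNRC6AB-/- and 8.02 ± 2.14 CPM in wild-type cells (-1.02, adjusted p = 0.00104, edgeR), and 1.96 ± 0.28 CPM in TNRC6AB-/- siTNRC6C and 12.3 ± 1.71 CPM in wild-type siGL2 cells (-2.65, adjusted p = 6.26e-09). PLS1, an actin bundling protein of microvilli like villin, fell by 0.49 (adjusted p = 0.0165) and by 0.89 (adjusted p = 5.48e-05). EPS8, a capping protein of actin filaments in microvilli, rose by 0.94 in TNRC6AB-/- cells (adjusted p = 4.45e-07) but fell by 0.29 in TNRC6AB-/- siTNRC6C cells (adjusted p = 0.0291). Between the siGL2 groups it was at 0.06 (adjusted p = 0.774), and the double knockout difference was lower there than in untransfected cells by an interaction of -0.89 (adjusted p = 0.000725).

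Of 23 goblet and secretory genes only 8 were tested, 3 of which rose and 2 fell in TNRC6AB-/- cells, and 1 rose and 3 fell in TNRC6AB-/- siTNRC6C cells (29.4% and 42.2% of all genes called), while 2 rose and 2 fell between the siGL2 groups (21.7%). The membrane mucin MUC12 fell in both, to 2.23 ± 0.59 CPM in TNRC6AB-/- cells, against 9.46 ± 6.23 CPM in wild type (adjusted p = 7.87e-05, edgeR), and to 1.40 ± 0.05 CPM in TNRC6AB-/- siTNRC6C cells, against 6.38 ± 0.73 CPM in wild-type siGL2 (adjusted p = 4.23e-05). GFI1, a transcription factor of secretory precursors, fell in TNRC6AB-/- siTNRC6C cells (-1.17, adjusted p = 5.65e-05) and between the siGL2 groups (-0.93, adjusted p = 0.0013), and was at -0.06 in TNRC6AB-/- cells (adjusted p = 0.854). In TNRC6AB-/- siTNRC6C against TNRC6AB-/- siGL2 it was at -0.23 (adjusted p = 0.492).

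Within the families of the members, 13 of 16 other KLF genes were tested, of which 4 rose and 3 fell in TNRC6AB-/- cells and 2 rose and 1 fell in TNRC6AB-/- siTNRC6C cells (29.4% and 42.2% of all genes called), with a median log2 fold change of -0.23 and 0.11. KLF12, a repressor, rose by 1.10 (adjusted p = 4.35e-06, edgeR) and 1.17 (adjusted p = 1.23e-06), and KLF11 by 0.86 (adjusted p = 0.0139) and 0.83 (adjusted p = 0.0124). KLF15 fell in TNRC6AB-/- cells (-1.19, adjusted p = 0.0254), as KLF4 did. Of 9 other CEACAM genes 2 passed the filter, and CEACAM19 rose in TNRC6AB-/- siTNRC6C cells, to 4.94 ± 0.37 CPM, against 3.04 ± 0.42 CPM in wild-type siGL2 cells (0.70, adjusted p = 0.0268), while its difference in TNRC6AB-/- cells was -0.29 (adjusted p = 0.427).

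**Figure D4:**
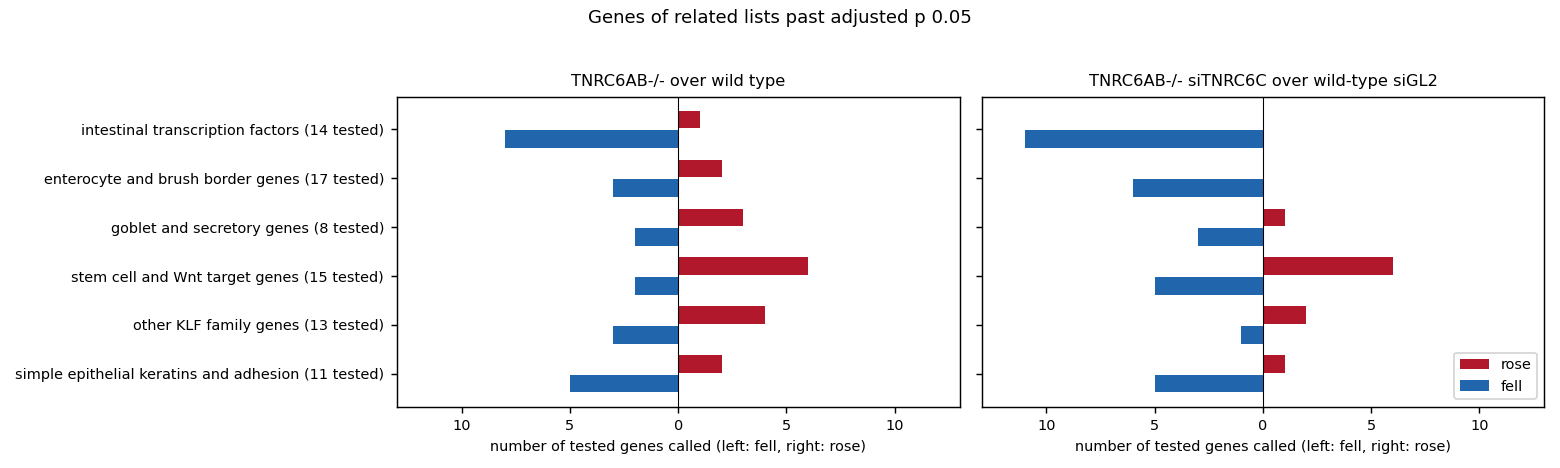
Number of tested genes of 6 related lists called at an adjusted p of 0.05 by edgeR, with genes that fell to the left and genes that rose to the right, in TNRC6AB-/- against wild-type cells and in TNRC6AB-/- siTNRC6C against wild-type siGL2 cells. Of the 14 tested intestinal transcription factors 8 and 11 fell.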

How the data were processed

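Total RNA of HCT116 cells in 8 groups of 3 was sequenced from strand-specific libraries. The authors quantified transcripts with Salmon 0.11.0, and the deposited tables hold for each transcript an estimated count of reads, which need not be whole, and TPM as the authors' Salmon runs gave them. STAR 2.5.3a, hg38 and DESeq2 are also named in the submitters' processing notes. Of 199612 transcripts, 199368 were matched to GENCODE 29 without version numbers, and the other 244 held at most 0.0544% of a library's reads. Summing over transcripts gave 57721 genes (44889 with reads), and sums were rounded. Genes passing filterByExpr (24153) were scaled by TMM and fitted over all 24 libraries in edgeR 4.0.16 (R 4.3.3, 16 residual degrees of freedom), with Benjamini-Hochberg adjustment over all of them and calls at an adjusted p below 0.05. Standard errors were derived from each fold change and its F value. Alternatives were DESeq2 1.42.0, limma 3.58.1 (voom with a weight per group), RLE scaling, no filter, counts rebuilt from TPM, the compared libraries alone, a replicate block, a log2 fold change beyond 0.6 as well, and each library left out. A fit without the 2 libraries farthest from their group mean was added after seeing the data. All 10 members are named. From the other lists up to 3 genes with the smallest adjusted p below 0.05 in each of the double knockout comparisons with wild type and with wild-type siGL2 may be named, and the 2 most alike genes of each member. Members and lists were chosen with earlier results of these data known. Tests were checked on simulated counts. Promoters and microRNAs are from RefSeq, GRCh38.p14. A result of 1 listed gene is not reported here.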

Additional observations from a re-analysis of the deposited data

Results flagged for a closer look

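In 2 results the effect of a transfection differed between wild-type and double knockout cells by an interaction test in edgeR. For CEACAM1 the siTNRC6C difference was lower in TNRC6AB-/- than in wild-type cells, by -1.17 on the log2 scale (adjusted p = 0.0145), with all 3 siTNRC6C libraries above siGL2 in wild-type cells and all 3 below siGL2 in TNRC6AB-/- cells. For KRT20 the siGL2 difference from untransfected cells was lower in TNRC6AB-/- than in wild-type cells, by -1.85 (adjusted p = 0.0255), on 6 to 51 reads per library. The cause of either was not tested.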

How the results depend on the processing

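Of 84 results (7 members in 12 contrasts), no called result changed sign under any alternative that gave it a value. Of the 33 alternatives, 12 to 20 gave a value for each result. Among uncalled results, 87 values of 32 results changed sign. Of 1247 values 1189 kept their side of the threshold, 30 lost and 28 gained a call. Causes were not tested. For the number of members called, without a filter TNRC6A-/- gave 2 (of 1) and TNRC6B-/- 1 (of 0). With counts rebuilt from TPM TNRC6A-/- gave 2, wild-type siTNRC6C 1 (of 2), wild-type siGL2 against wild type 0 (of 1), and the siTNRC6C and siGL2 interactions 0 (of 1). DESeq2 gave 2 in TNRC6A-/-, 1 in wild-type siTNRC6C and 0 in the siGL2 interaction, with no adjusted p for KRT20 in the last 2 of these. With the compared libraries alone TNRC6AB-/- siTNRC6C gave 5 (of 3) against wild-type siGL2 and 3 (of 0) against TNRC6AB-/- siGL2, wild-type siTNRC6C 4, TNRC6AB-/- siGL2 against TNRC6AB-/- 1 (of 0), wild-type siGL2 against wild type 0, the siTNRC6C interaction 2 and the siGL2 interaction 0. TNRC6AB-/- siGL2 against wild-type siGL2 gave 4 (of 3) there and by limma. limma gave 3, 0, 2 and 0 in TNRC6AB-/- siTNRC6C against TNRC6AB-/- siGL2, wild-type siGL2 against wild type and the same interactions. Without the 2 farthest libraries wild-type siGL2 against wild type gave 0 and the siGL2 interaction 2. Leaving out 1 library gave 1 to 2 in TNRC6AB-/- and in TNRC6A-/-, 2 to 3 in TNRC6AB-/- siTNRC6C and 3 to 3 in TNRC6AB-/- siGL2 against wild-type siGL2, 0 to 2 in wild-type siTNRC6C and in wild-type siGL2 against wild type, 0 to 1 in the siTNRC6C and siGL2 interactions and 0 to 0 in the other 4. A log2 fold change beyond 0.6 changed no count.

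Same-numbered replicates correlated at r from -0.496 to 0.712, in no comparison all 3 over 0.1 (0.604, 0.0535 and 0.712 between the siGL2 groups), and were not taken as pairs; the replicate block gave 2 members in TNRC6AB-/- and changed no member's call, with 6935 genes called against 7113. Over all genes, the compared libraries alone gave 3449 calls in TNRC6AB-/-, 1512 (of 3380) in TNRC6A-/-, 42 (of 759) in TNRC6B-/-, 85 (of 5995) in wild-type siGL2 against wild type, 2787 (of 225) in wild-type siTNRC6C and 8737 (of 1583) in TNRC6AB-/- siTNRC6C against TNRC6AB-/- siGL2. limma gave 104, 1921 and 8539 in TNRC6B-/-, wild-type siTNRC6C and TNRC6AB-/- siTNRC6C against TNRC6AB-/- siGL2, DESeq2 658 in wild-type siTNRC6C, and the fit without the farthest libraries 4057 in TNRC6B-/-. In wild-type siTNRC6C no filter gave 405 and counts rebuilt from TPM 98, which gave 451 in TNRC6B-/- and 387 (of 733) in the siTNRC6C interaction, where the compared libraries, limma and DESeq2 gave 6638, 4859 and 1535. The interaction of both knockouts (1873) gave 593, 4812 and 864 with the compared libraries, without the farthest libraries and with limma, and the siGL2 interaction (2104) gave 1060 with the compared libraries. Leaving out 1 library gave 46 to 86 in wild-type siTNRC6C, 409 to 3145 in TNRC6B-/-, 497 to 1198 in TNRC6AB-/- siTNRC6C against TNRC6AB-/- siGL2, 2642 to 7695 in wild-type siGL2 against wild type, 3099 to 4322 (of 4863) in TNRC6AB-/- siGL2 against TNRC6AB-/-, and 1389 to 3835, 217 to 682 and 1185 to 3077 in the knockout, siTNRC6C and siGL2 interactions. Depth limits VIL1, KRT20 and CEACAM5 most, and CDX1, CEACAM6 and TFF3 altogether.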

Other observations

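Stem cell and Wnt target genes moved in both directions. Of 20 listed genes 15 were tested, of which 6 rose and 2 fell in TNRC6AB-/- against wild-type cells, and 6 rose and 5 fell in TNRC6AB-/- siTNRC6C against wild-type siGL2 cells (29.4% and 42.2% of all genes called). MYC, the growth-promoting transcription factor, averaged 55.9 ± 18.8 CPM in TNRC6AB-/- and 281 ± 46.4 CPM in wild-type cells (SD, n = 3 each; log2 fold change -2.33, adjusted p = 6.44e-08, edgeR). PROM1, the surface protein CD133, averaged 2.89 ± 1.89 CPM in TNRC6AB-/- and 29.5 ± 3.99 CPM in wild-type cells (-3.35, adjusted p = 1.07e-08). SP5, a Wnt target, averaged 2.41 ± 0.62 CPM in TNRC6AB-/- and 0.246 ± 0.190 CPM in wild-type cells (3.26, adjusted p = 2.34e-07).

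All 11 genes of simple epithelial keratins and adhesion were tested, of which 2 rose and 5 fell in TNRC6AB-/- cells and 1 rose and 5 fell in TNRC6AB-/- siTNRC6C cells (29.4% and 42.2% of all genes called). CDH1, the cadherin of epithelial junctions, averaged 24.6 ± 15 CPM in TNRC6AB-/- and 98.2 ± 32.4 CPM in wild-type cells (-2.0, adjusted p = 6.65e-05, edgeR), and EPCAM averaged 82.0 ± 29.9 and 214 ± 8.41 CPM in the same groups (-1.38, adjusted p = 1.47e-05). KRT7, a keratin with little use in colon, averaged 0.599 ± 0.135 CPM in TNRC6AB-/- siTNRC6C and 5.07 ± 1.48 CPM in wild-type siGL2 cells (-3.08, adjusted p = 0.000331).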
